A study of Mus musculus with 6 samples.

Results

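The replication-dependent histone genes encode the linker histone H1 and the core histones H2A, H2B, H3, and H4 that package newly copied DNA. They were taken by symbol as the protein-coding genes *H1f1* to *H1f5* and all genes named *H2ac*, *H2bc*, *H3c*, or *H4c* with a number. This rule found 67 of the 57126 genes of the deposited count table, made up of 5 H1, 18 H2A, 19 H2B, 12 H3, and 13 H4 genes. In GRCm39, 53 of them lie on chromosome 13, 10 on chromosome 3, 3 on chromosome 11, and 1 on chromosome 6.

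RNA was sequenced from CD8+ T cells of OT-I mice, which carry a transgenic receptor for an ovalbumin peptide, after 6 days of culture with nanoparticle artificial antigen-presenting cells (nano-aAPCs). All 6 samples received nano-aAPCs and IL-2. The 3 TEff samples received IL-2 alone, and the 3 TRM-like samples also received IL-15 and TGF-β, the mix used to give cells a tissue-resident memory phenotype in culture. The libraries were made from total RNA with a strand-marking kit, and the values are reads counted per gene.

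Replication-dependent histone mRNA is made and translated mainly during S phase, when DNA is copied, and is degraded when replication ends. It carries no poly(A) tail in its usual form. It ends instead a few bases after a short stem-loop, which is bound by SLBP, and its 3′ end is cut by a machinery guided by the U7 small nuclear ribonucleoprotein, of which LSM10 and LSM11 are parts. NPAT is a shared transcriptional coactivator of these genes, and activated CD8+ T cells divide rapidly and so use them heavily.

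The stem-loop is the feature that the genes share beyond their names, so it was read from the genome. A run of 16 bases beginning with GG and ending with CC, with 6 complementary pairs and a loop of 4 bases that starts with T, was searched within 200 bases after the stop codon of each gene's canonical transcript. It was found in 62 of the 67 histone genes (92.5%) and in 37 of 21703 other protein-coding genes (0.171%). The letters were not found in this window for *H2ac22*, *H2bc21*, *H2bc22*, *H2bc23*, and *H2bc24*. There were 8 versions of the stem-loop, and the most common was shared by 39 genes, *H2bc27* and all 5 H1 genes among them. A version with another loop base was held by 8 genes, *H2bc3* among them. Another, with a different base pair in the stem, was held by 8 genes, all of them H4. The remaining 5 versions were held by 1 or 2 genes each. An example of each is given 5′ to 3′ on the gene's strand, with the 16 bases in capitals and 5 bases on either side (GRCm39).
*H2bc27*, chr11:58840170-58840195, plus strand: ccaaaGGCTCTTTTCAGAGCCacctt
*H2bc3*, chr13:23931181-23931206, plus strand: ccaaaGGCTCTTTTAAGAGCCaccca
*H4c6*, chr13:23735460-23735485, minus strand: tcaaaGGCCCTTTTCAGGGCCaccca
*H4c11*, chr13:21919602-21919627, plus strand: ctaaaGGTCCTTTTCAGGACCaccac
*H4c14*, chr3:96170250-96170275, minus strand: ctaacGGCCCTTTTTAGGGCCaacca
*H2ac20*, chr3:96127729-96127754, minus strand: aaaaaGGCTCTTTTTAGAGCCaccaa
*H3c8*, chr13:23720054-23720079, plus strand: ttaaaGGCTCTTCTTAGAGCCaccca
*H4c1*, chr13:23944778-23944803, minus strand: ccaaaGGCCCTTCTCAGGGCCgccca

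The sequence before the start sites differed by family. The octamer ATTTGCAT, searched on both strands from 250 bases before to 50 bases after the start, was present in 8 of 19 H2B genes and 7 of 18 H2A genes, in 0 of the 30 H1, H3, and H4 genes, and in 1.57% of the other protein-coding genes. CCAAT was present on either strand in 55 of the 67 genes, against 39.8% of the others. TATAAA was present, also on either strand, in 36, against 13.1%. An H2A and an H2B gene start back to back within 500 bases of each other in 12 places. The stretches between the starts of 2 such pairs are shown because the partners had unlike values in these samples, as described later. Both are printed on the plus strand of GRCm39, with the octamer in capitals on whichever strand it lies.
*H2bc26* and *H2ac25*, chr11:58845255-58845510: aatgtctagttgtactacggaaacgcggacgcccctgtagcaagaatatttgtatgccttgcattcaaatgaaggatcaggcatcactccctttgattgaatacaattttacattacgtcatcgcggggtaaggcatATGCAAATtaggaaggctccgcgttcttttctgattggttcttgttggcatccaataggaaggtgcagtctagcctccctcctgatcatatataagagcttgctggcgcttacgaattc
*H2ac20* and *H2bc21*, chr3:96128197-96128434: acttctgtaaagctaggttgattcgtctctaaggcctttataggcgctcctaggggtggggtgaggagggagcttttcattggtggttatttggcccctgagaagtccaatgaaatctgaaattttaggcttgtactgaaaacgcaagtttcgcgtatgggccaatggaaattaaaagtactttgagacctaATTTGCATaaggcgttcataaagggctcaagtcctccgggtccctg

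The libraries must be described before the values, because the TRM-like samples were not alike. The total counts were 18319013 to 21960760 in the TEff samples and 21178756 to 23622621 in the TRM-like samples. *Itgae*, which encodes the residency marker CD103, was at 20.1 to 30.0 CPM in TEff and at 707, 742, and 284 CPM in TRM-like replicates 1, 2, and 3. Replicate 3 therefore lay on the TRM-like side for this gene, which was chosen after its values were seen. Here and below, CPM gives a gene's counts relative to its library, scaled with TMM factors. Pairs of samples were then compared by a chi-square test of their counts over 61 histone genes, those that reached 10 counts in each sample. Divided by the number of genes, it would be near 1 if counting noise alone separated a pair, and it was 35.6 between TRM-like replicates 1 and 2, 1161 between replicates 1 and 3, and 30.6 between TRM-like replicate 3 and TEff replicate 1. The TEff samples were not alike either, since TEff replicate 2 was at 384 and 552 from TEff replicates 1 and 3 and at 247 and 120 from TRM-like replicates 1 and 2. TRM-like replicates 1 and 2 also had counts on 61.8% and 65.5% of 1546 olfactory and vomeronasal receptor genes, which T cells do not use, against 2.98% to 3.56% in the other 4 samples. The level of those genes was 0.0284 and 0.0289 RPKM, and the lowest of the 61 histone genes stood at 2.16 RPKM. The 5 CD8 T cell markers summed to 1650 to 1773 CPM in TEff and 2279 to 3127 CPM in TRM-like, while CD4 T cell markers summed to 35.9 to 41.5 and 18.4 to 25.99 CPM, NK cell markers to 18.8 to 34.9 and 1.94 to 11.9 CPM, B cell markers to at most 10.9 CPM, myeloid markers to 5.08, erythroid markers to 0.654, and fibroblast markers to 1.44. *Cd4* had 0 to 2 counts in each sample.

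Histone genes took a sizeable part of the reads. Their summed level was 23441, 16903, and 25403 CPM in TEff replicates 1, 2, and 3, and 12911, 14310, and 23276 CPM in TRM-like replicates 1, 2, and 3, or 1.29% to 2.54% of the library in a sample. TRM-like replicates 1 and 2 were the lowest, and TRM-like replicate 3 lay among the TEff samples. TEff replicate 2 lay below the other TEff samples, as it did for 60 of the 62 histone genes tested. It was the lowest TEff sample for 10053 of all 26154 genes tested. The group means were 21916 ± 4451 (SD, n = 3) and 16832 ± 5624 CPM, a log2 ratio of -0.38, and -0.69 without TRM-like replicate 3. In RNA from a mixed culture, fewer cells in S phase and less histone mRNA per cell cannot be told apart.

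Levels per length, in RPKM by the deposited gene length, spanned several orders. The median over the 62 tested genes was 290 RPKM, against 1.28 RPKM over all genes tested. The highest was *H4c6* at 1863 RPKM (mean of the 6 samples), followed by the H2B genes *H2bc15* at 1603 and *H2bc3* at 1577 RPKM and by *H4c17* at 1510 RPKM. The H1 genes ran from 143 RPKM for *H1f3* to 1055 RPKM for *H1f5*, but *H1f3* is annotated over 7425 bases and *H1f5* over 743, so its level per length depends on that annotation. The H3 genes lay at 238 to 700 RPKM. The H2A genes were the lowest family, with a median of 63.9 RPKM and a maximum of 211 RPKM for *H2ac15*, and they held 2.03% to 3.48% of the summed CPM of the histone genes in a sample, against 30.2% to 32.04% for H2B.

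**Figure D1:**
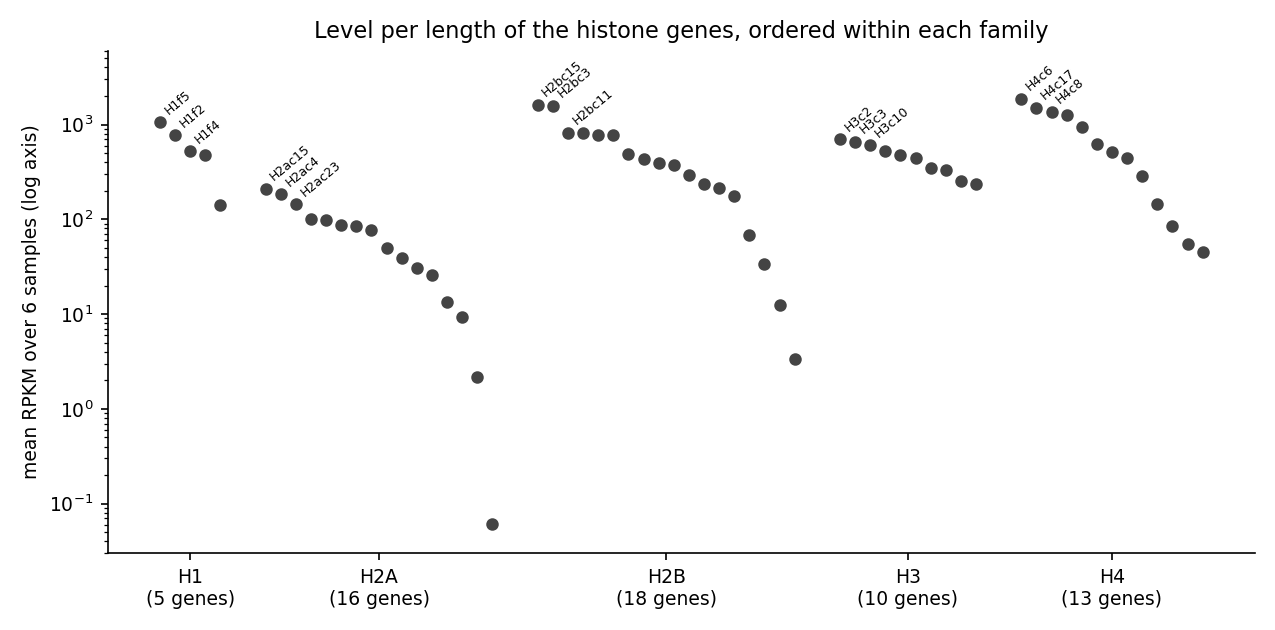
Mean RPKM over the 6 samples (log axis) of the 62 histone genes with counts, ordered within each family, each point a gene and the 3 highest of each family named. H2A genes end at 211 RPKM, below the top of every other family, and the lowest point is *H2ac1* at 0.061 RPKM.

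How reads were assigned bears on these levels. *H2ac18*, *H2ac19*, *H2bc18*, *H3c13*, and *H3c14*, all on chromosome 3, had 0 counts in every sample, and they are exactly the 5 histone genes whose exons are wholly covered, on either strand, by long noncoding RNA genes of the same table. *Gm20628*, which covers *H2bc18* and *H3c13*, had 84 to 160 counts in a sample. Counts of 0 in these 5 are therefore not read as a lack of expression. Whether the overlap removed their reads was not tested. By the genes measured for this, *H2ac19*, *H2bc18*, and *H3c13* are covered on the opposite strand alone. *Gm42743* also overlaps the spans of *H2bc18* and *H3c13* on the same strand. Its exons were not measured, because its length in the annotation used here differed from the deposited length. Of the 16 tested H2A genes, 15 have an annotated miRNA on the opposite strand over 5.56% to 35.9% of their exons, and these miRNAs had 0 counts. Whether this lowered the H2A counts was not tested. Many of the genes also hold stretches that recur elsewhere. A median of 33.7% of the 100-base windows of a gene were found again in another place of the genome. The share was 100% in *H2ac19*, *H2ac23*, *H2ac24*, *H2bc23*, and *H2bc24*. It was 0% in *H1f1*, *H1f5*, *H2ac1*, *H2ac25*, *H2bc18*, *H2bc21*, *H4c4*, and *H4c14*. Differences among such copies are uncertain, since reads could fall on either.

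The comparison of TRM-like with TEff cells asked how the added IL-15 and TGF-β changed the transcriptome. Among 62 tested histone genes, 1 was lower in TRM-like cells and 0 were higher at an adjusted p under 0.05 and an absolute log2 fold change above 0.58 in edgeR's quasi-likelihood test, against 1.48% of all 26154 tested genes that were called lower and 1.52% called higher. The labels do not say whether the replicates came from separate cultures or animals, so p-values measure only the spread between these samples. At an unadjusted p under 0.05 there were 12 of 62 histone genes (19.4%), all with negative fold changes, and 3871 of all genes tested (14.8%), so that their share was near that of all genes. The log2 fold change was negative for 61 of 62 and its median was -0.46, while it was negative for 12699 of all 26154 genes and their median was 0.02. The exception was *H2ac1*, a testis form, which had 0 or 1 count per sample. All 3 TRM-like values lay below all 3 TEff values for 3 histone genes, *H2bc27*, *H2bc26*, and *H4c16*, against 9.71% of all tested genes.

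The count of histone genes called lower changed most when TRM-like replicate 3 was left out. Other filters and models also moved it with all samples kept, as given at the end. The value of that replicate was above those of TRM-like replicates 1 and 2 for 59 of the 62 genes. It fell inside the TEff range for 52, above it for 5, and below it for 5. Over all 26154 tested genes, the replicate was above TRM-like replicates 1 and 2 for 9266. There it fell inside the TEff range for 10663, above it for 7775, and below it for 7716. TRM-like replicates 1 and 2 both lay below all TEff samples for 58 of 62 genes, against 23.4% of all genes. Without TRM-like replicate 3, 51 of 62 histone genes were lower and 0 were higher, against 7.67% of all 25478 genes tested then that were called lower and 6.38% called higher, with edgeR and Benjamini-Hochberg adjustment. The median log2 fold change of the histone genes was then -0.81, and that of all genes was 0.02. The 51 called genes fell by 0.59 to 2.19 on the log2 scale. With this sample left out by reason of its values, the count describes the other 5 samples and not the group as labelled. TRM-like replicates 1 and 2 are also the libraries with counts on receptor genes that T cells do not use, and the part of this library difference in the histone values was not tested.

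**Figure D2:**
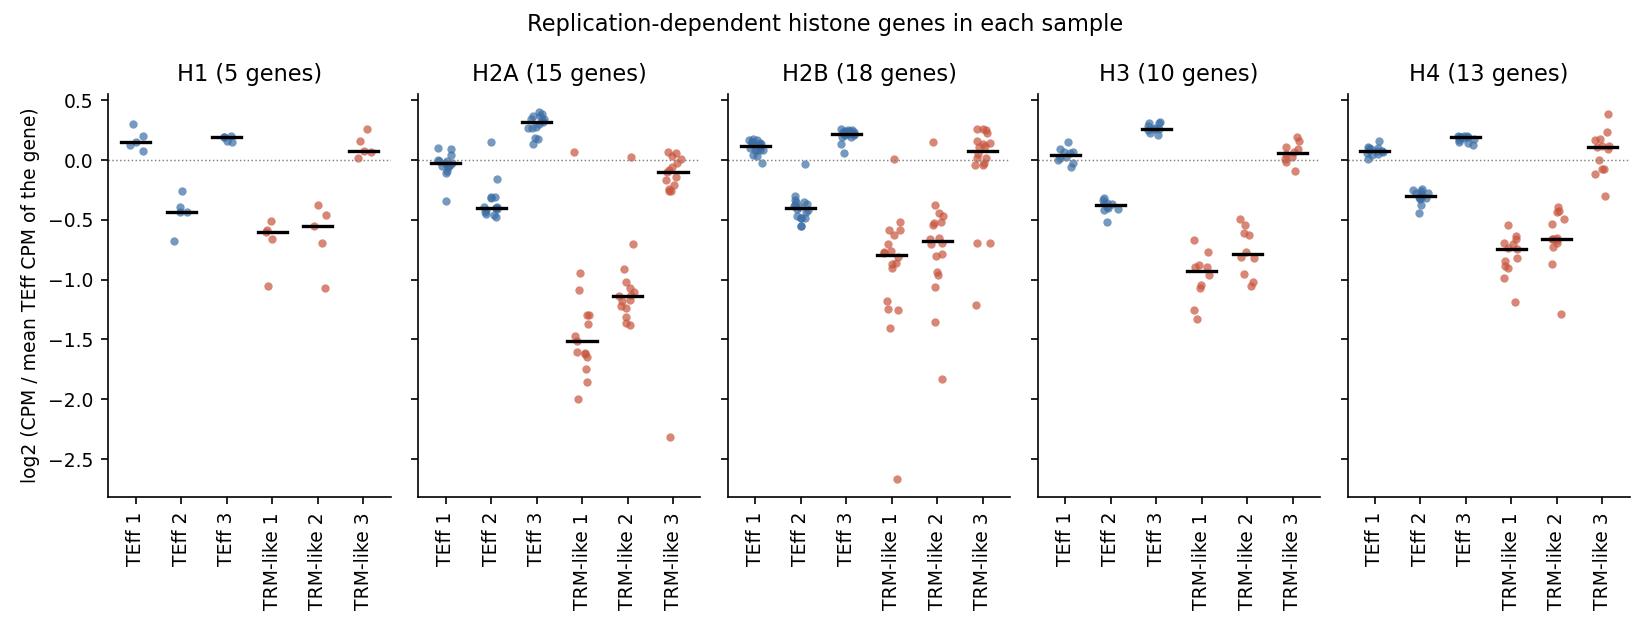
Level of each histone gene in each sample as log2 of its CPM over the gene's mean TEff CPM, for 61 genes that reached 10 counts in each sample, by family, with TEff in blue, TRM-like in red, and the median as a black bar. The medians of TRM-like replicates 1 and 2 sit below those of the TEff samples in every family, and the points of TRM-like replicate 3 lie mostly within the TEff range.

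*H2bc27*, an H2B gene on chromosome 11 (58838848 to 58840361), was the histone gene that passed the test with all samples. It had 33.2, 23.2, and 32.5 CPM in the TEff samples and 11.2, 11.6, and 12.8 CPM in the TRM-like samples, from 257 to 727 counts. The groups did not overlap, and TRM-like replicate 3 was here as low as the others. The log2 fold change was -1.32 (SE 0.17, edgeR adjusted p = 0.00420). In 17 alternative settings it lay between -1.47 and -1.22, with adjusted p from 1.79e-11 to 0.0393. Its share of the summed H2B level was 0.449%, 0.455%, and 0.408% in TEff and 0.280%, 0.261%, and 0.171% in TRM-like samples, so that it was lower relative to its own family as well. The shares of *H2bc26* in H2B and of *H4c16* in H4 were also lower in every TRM-like sample than in any TEff sample. Those of *H2bc1* and *H2bc21* in H2B overlapped. No test was run on these shares. The gene's span includes a transcript that starts further upstream. The 250 bases before the start of the canonical transcript lie inside that span and are printed on the gene's strand. They hold CCAAT 4 times on either strand and TATAAA once on the gene's strand, shown in capitals, and no octamer. TATAAA on the other strand was not counted or marked here.
*H2bc27*, chr11:58839496-58839745, plus strand: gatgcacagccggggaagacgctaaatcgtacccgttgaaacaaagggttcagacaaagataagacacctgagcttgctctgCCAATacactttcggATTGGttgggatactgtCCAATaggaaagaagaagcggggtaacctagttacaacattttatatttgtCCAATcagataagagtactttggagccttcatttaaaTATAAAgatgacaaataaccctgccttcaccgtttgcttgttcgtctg

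The other genes outside the large clusters were looked at for the same pattern, and *H2bc26*, *H2ac25*, and *H2bc21* were chosen after their values were seen. *H2bc26*, next to *H2bc27* on chromosome 11, was at 36.2, 23.6, and 39.0 CPM in TEff and 17.7, 19.05, and 20.4 CPM in TRM-like samples. The groups did not overlap, but it did not pass the test with all samples (log2 fold change -0.79, SE 0.19, edgeR adjusted p = 0.0709), and it was called lower in DESeq2 and, in edgeR, without TRM-like replicate 3 (adjusted p = 0.00490). It overlaps *Trim17* on the opposite strand. *H4c16*, the only histone gene of the rule on chromosome 6, was at 164, 127, and 170 CPM in TEff and 87.0, 96.6, and 125 CPM in TRM-like, again without overlap (log2 fold change -0.58, SE 0.18, edgeR adjusted p = 0.156). For both genes TRM-like replicate 3 lay below every TEff sample, which was so for 0 of the 53 genes on chromosome 13. The same held for 5 of the 62 tested histone genes, with *H2bc27*, *H2ac25*, and *H2bc21* as the others. It held for 7716 of all 26154 tested genes.

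The back-to-back partners of these pairs had other values. *H2ac25*, which starts back to back with *H2bc26*, was at 4.16, 5.87, and 5.80 CPM in TEff and 5.54, 5.37, and 1.06 CPM in TRM-like samples, so that only TRM-like replicate 3 stood apart. Its span overlaps that of *Trim17* on the same strand in the annotation used here. Whether their exons share bases was not measured, and its value is uncertain for that reason. *H2bc21*, on chromosome 3, was at 8.92, 8.91, and 9.45 CPM in TEff and 9.16, 10.1, and 5.63 CPM in TRM-like samples, while its partner *H2ac20* was at 56.9, 42.9, and 60.2 CPM in TEff and 25.1, 32.8, and 54.7 CPM in TRM-like. With all samples none of these 3 passed the test, and without TRM-like replicate 3 *H2ac20* was lower (log2 fold change -0.89, SE 0.16, edgeR adjusted p = 0.00149), whereas *H2ac25* and *H2bc21* had log2 fold changes of 0.04 and 0.07.

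**Figure D3:**
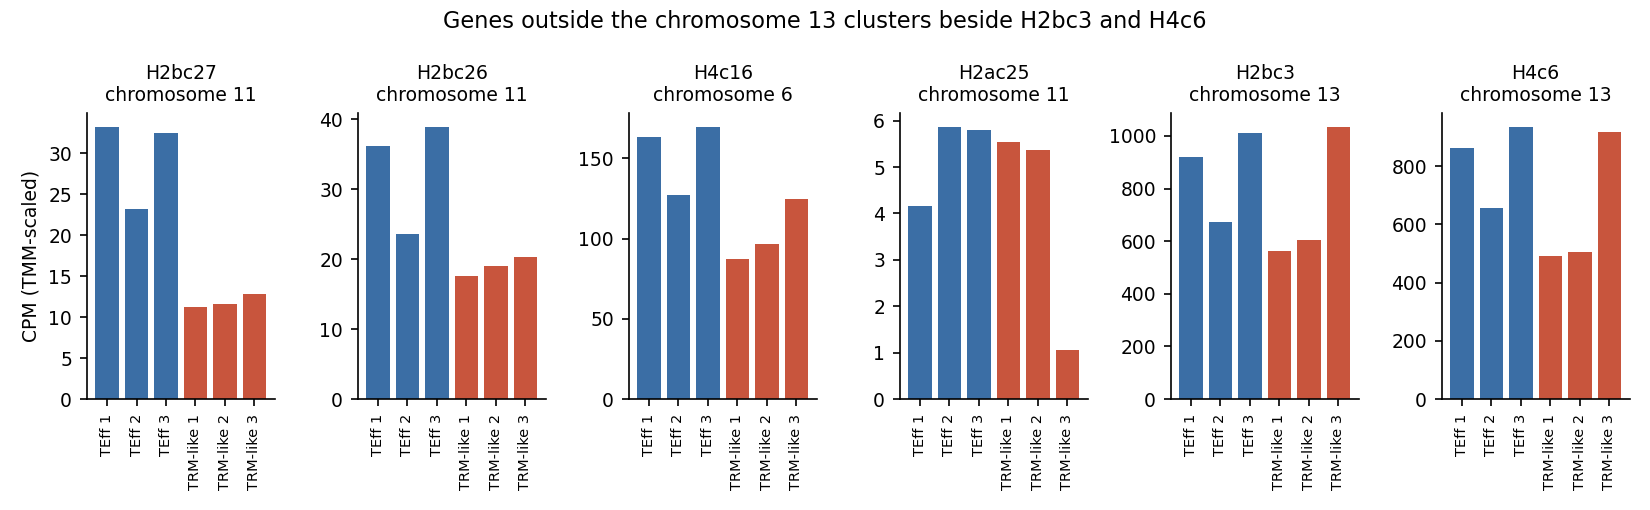
CPM of 6 histone genes in each sample, TEff in blue and TRM-like in red, with every axis starting at 0. *H2bc27*, *H2bc26*, and *H4c16* are lower in all 3 TRM-like samples than in any TEff sample, *H2ac25* is low in TRM-like replicate 3 alone, and *H2bc3* and *H4c6* are low in TRM-like replicates 1 and 2 and not in replicate 3.

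The linker histones bind DNA between nucleosomes, and the 5 replication-dependent H1 genes had at least 4620 counts in every sample. *H1f2* was the highest in CPM, at 1410, 1116, and 1487 in TEff and 892, 971, and 1350 in TRM-like. *H1f3* was at 1356, 873, and 1317 CPM in TEff and 779, 805, and 1249 CPM in TRM-like. *H1f4* was at 1177, 818, and 1232 CPM in TEff and 757, 828, and 1199 CPM in TRM-like. In these 3 genes TRM-like replicate 3 was within the TEff range, and TRM-like replicates 1 and 2 were below every TEff sample for *H1f2* and *H1f3*, while for *H1f4* replicate 2 was above TEff replicate 2. *H1f5* was at 958, 638, and 993 CPM in TEff and 546, 535, and 1032 CPM in TRM-like. *H1f1* was at 521, 265, and 482 CPM in TEff and 204, 202, and 442 CPM in TRM-like, and had the most negative H1 fold change. With all samples the H1 log2 fold changes were -0.58 to -0.21 and 0 of 5 passed the test (edgeR adjusted p from 0.516 to 0.729), while without TRM-like replicate 3, *H1f1*, *H1f3*, and *H1f5* were lower, *H1f1* by -1.07 (SE 0.22, edgeR adjusted p = 0.00362).

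H2A and H2B form the dimers that flank the core of the nucleosome. The H2A genes had the most negative fold changes of the 5 families, with a median of -0.78 over 16 tested, and 0 passed the test. *H2ac6*, with the largest, was at 44.7, 33.1, and 52.7 CPM in TEff and 13.9, 17.0, and 36.3 CPM in TRM-like (log2 fold change -0.96, SE 0.34, edgeR adjusted p = 0.222). *H2ac4* was at 108, 81.8, and 136 CPM in TEff and 37.9, 50.5, and 104 CPM in TRM-like. *H2ac15* was at 96.6, 81.1, and 123 CPM and then 41.0, 49.4, and 105 CPM, and *H2ac23* at 81.4, 65.6, and 113 CPM and then 33.6, 46.2, and 73.5 CPM. All 4 showed TRM-like replicates 1 and 2 below every TEff sample and replicate 3 inside the TEff range. Without TRM-like replicate 3, 14 of 16 H2A genes were lower, against 7.67% of all genes tested then. The family median was then -1.35. The H2A share of the summed histone level was 2.97%, 3.23%, and 3.48% in TEff and 2.03%, 2.34%, and 2.85% in TRM-like, without overlap of the groups, whereas the shares of H1, H2B, H3, and H4 overlapped.

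The 3 H2B genes with the highest RPKM are given first. In CPM *H2bc6*, annotated over 2510 bases, was above *H2bc15* and *H2bc11*, annotated over 381 and 463, with TEff means of 807, 658, and 468. *H2bc3* was at 921, 674, and 1012 CPM in TEff and 561, 603, and 1035 CPM in TRM-like, and *H2bc15* at 699, 515, and 761 CPM and then 460, 509, and 722 CPM. *H2bc11* was at 520, 335, and 550 CPM in TEff and 196, 225, and 461 CPM in TRM-like (log2 fold change -0.67, SE 0.33, edgeR adjusted p = 0.394). None of the 3 passed the test with all samples. *H2bc1*, a testis form, was at 6.54, 5.16, and 7.40 CPM in TEff and 1.00, 1.79, and 6.87 CPM in TRM-like, and it had the largest fall of the histone genes without TRM-like replicate 3 (-2.19, SE 0.27, edgeR adjusted p = 8.19e-05). Over the 18 tested H2B genes the log2 fold changes were -1.32 to -0.13. Without TRM-like replicate 3, 14 of them were lower, against 7.67% of all genes tested then.

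H3 and H4 form the tetramer at the centre of the nucleosome. *H3c10* had the largest H3 difference, at 304, 230, and 380 CPM in TEff and 121, 147, and 300.4 CPM in TRM-like (log2 fold change -0.68, SE 0.33, edgeR adjusted p = 0.389). *H3c2* was at 501, 368, and 576 CPM and then 302, 343, and 512 CPM, and *H3c3* at 504, 375, and 565 CPM and then 259, 283, and 485 CPM. In all 3, replicates 1 and 2 of the TRM-like group were below the TEff samples and replicate 3 was among them. *H4c6* was at 864, 656, and 936 CPM in TEff and 492, 506, and 918 CPM in TRM-like, *H4c17* at 731, 552, and 790 CPM and then 385, 437, and 748 CPM, and *H4c8* at 758, 599, and 811 CPM and then 467, 536, and 686 CPM. With all samples 0 of 10 H3 and 0 of 13 H4 genes passed the test. Without TRM-like replicate 3 all 10 tested H3 genes and 10 of the H4 genes were lower, against 7.67% of all genes.

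**Figure D4:**
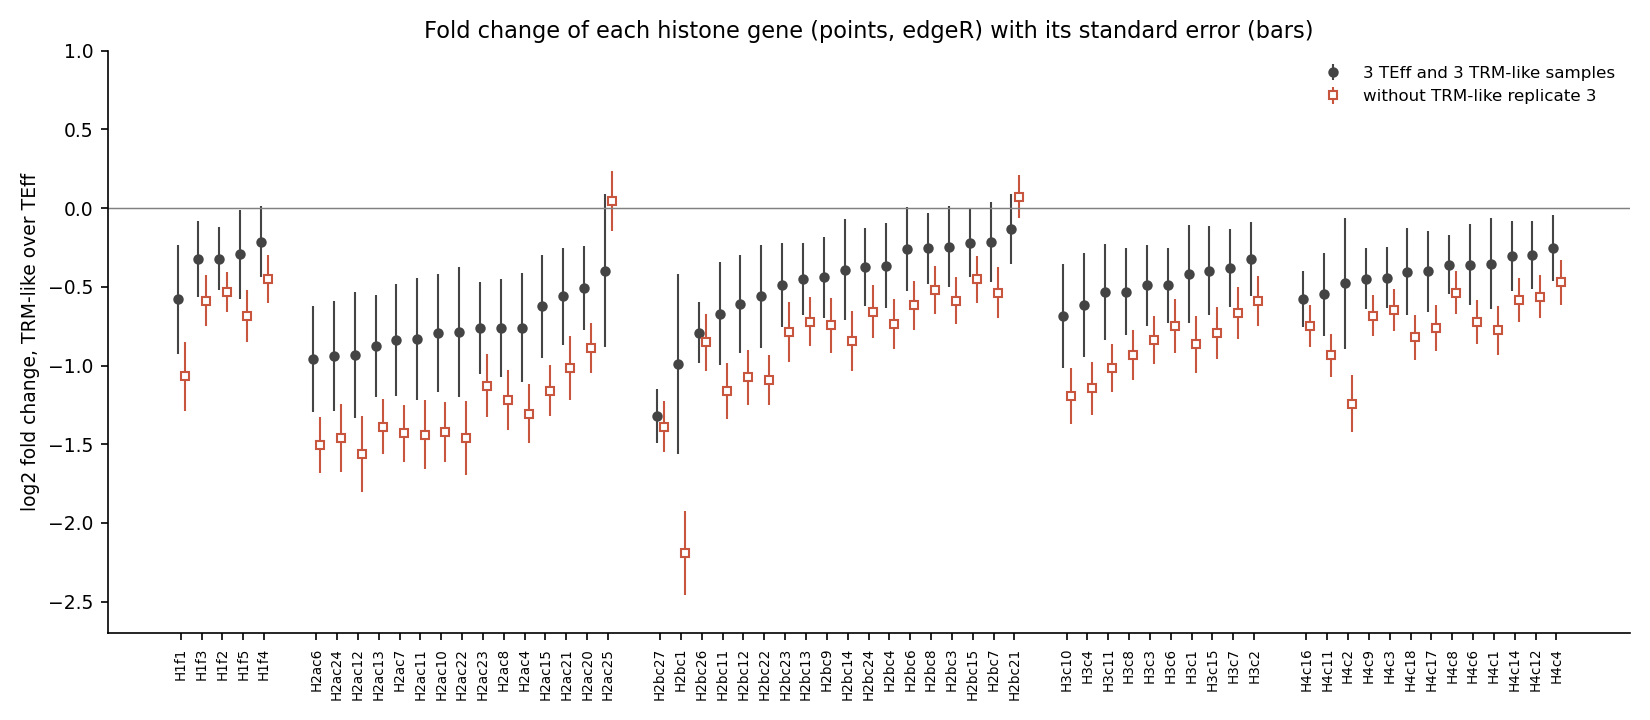
Log2 fold change of TRM-like over TEff for the same 61 histone genes, with its standard error as a bar, from all samples (filled circles) and without TRM-like replicate 3 (open squares). *H2bc27* moves from -1.32 to -1.39 and *H2bc26* from -0.79 to -0.85 between the settings, while most other genes lie lower and with shorter bars without that sample.

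Other genes act on histone mRNA. In a list of 15 genes for its transcription, 3′ end processing, and decay, 0 passed the test in either direction with all samples, the median log2 fold change was -0.13, and 2 had an unadjusted p under 0.05. *Slbp*, whose product binds the stem-loop, was at 142, 99.6, and 142 CPM in TEff and 89.8, 93.7, and 166 CPM in TRM-like (log2 fold change -0.13, SE 0.25). *Npat* was at 61.6 to 71.2 CPM in TEff and 55.8 to 74.7 CPM in TRM-like, *Lsm10* at 14.4 to 15.5 and 13.1 to 17.8 CPM, and *Lsm11* at 21.4 to 23.7 and 16.8 to 27.2 CPM, so that the groups overlapped for each. The smallest p-values were for *Zfp473*, a component of the U7 machinery (log2 fold change -0.62, edgeR adjusted p = 0.131), *Cpsf3*, the nuclease that cuts the 3′ end (-0.30, 0.324), and *Cstf2* (-0.36, 0.554). Without TRM-like replicate 3, 4 were lower, *Casp8ap2*, *Zfp473*, *Cstf2*, and *Eri1*, and 0 were higher. Of all genes tested then, 7.67% were called lower and 6.38% higher.

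Histone chaperones carry histones to the nucleus and place them on DNA. Of 23 genes for chaperones and nuclear import, 0 passed the test with all samples and 0 had an unadjusted p under 0.05, with a median log2 fold change of -0.22. Among genes that serve the replication-independent variant H3.3, *Daxx* and *Hira* had log2 fold changes of 0.20 and 0.23 and *Atrx*, *Cabin1*, and *Ubn1* had -0.15, -0.10, and -0.04, and *Nap1l1*, which binds H2A and H2B, had -0.35. Without TRM-like replicate 3, 11 were lower, among them *Nap1l1* and the replication-coupled factors *Chaf1a*, *Chaf1b*, and *Asf1b*, and 0 were higher. The shares of all genes tested then were 7.67% lower and 6.38% higher.

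The list of variant histone genes outside the symbol rule holds forms made through the cell cycle, such as H3.3, and others tied to a phase of it, such as *Cenpa* and *H2ax*. Their summed level was 1742, 1469, and 1817 CPM in TEff and 1571, 1688, and 1643 CPM in TRM-like, a log2 ratio of -0.04, and still -0.04 without TRM-like replicate 3. Of 11 genes, 0 passed the test with all samples, and 1 had an unadjusted p under 0.05. That gene was *H3f3a*, which encodes H3.3, at 116, 99.8, and 118 CPM in TEff and 176, 199, and 116 CPM in TRM-like (log2 fold change 0.56, SE 0.20, edgeR adjusted p = 0.224). Without TRM-like replicate 3 it was higher (0.74, edgeR adjusted p = 0.000476), and *H2ax*, whose product marks DNA breaks, was lower (-0.80, adjusted p = 0.000669). *H3f3b*, the other H3.3 gene, was at 312 to 398 CPM in TEff and 321 to 350 CPM in TRM-like. *H1f0* was at 121 to 162 and 115 to 191 CPM, *H2az1* at 125 to 187 and 145 to 221 CPM, and *H2az2* at 60.5 to 67.7 and 61.0 to 88.6 CPM, all with overlapping groups.

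The sums over cell cycle genes followed the samples much as the histones did. The 32 S phase genes, such as the MCM helicase and DNA polymerase genes, summed to 4223, 2770, and 4225 CPM in TEff and 1950, 1848, and 4838 CPM in TRM-like. The 20 G2 and M phase genes summed to 6391, 4417, and 6497 CPM in TEff and 3699, 3459, and 7100 CPM in TRM-like. In both lists TRM-like replicates 1 and 2 were lowest and TEff replicate 2 was below the other TEff samples, as for the histones, but TRM-like replicate 3 was the highest sample, whereas for the histones it was below TEff replicates 1 and 3. The histone sum over the S phase sum was 5.55, 6.10, and 6.01 in TEff and 6.62, 7.74, and 4.81 in TRM-like replicates 1, 2, and 3. In both lists 0 genes passed the test with all samples, and 1 S phase gene had an unadjusted p under 0.05, *E2f2*, a transcription factor of S phase genes (log2 fold change -0.78, SE 0.24, edgeR adjusted p = 0.159). Without TRM-like replicate 3, 7.67% of all genes tested were called lower and 6.38% higher. In that setting 28 of 32 S phase genes and 11 of 20 G2 and M phase genes were lower and 0 were higher. *Cdk2* (log2 fold change -1.03) and *Mki67*, *Cdca8*, and *Aurkb* (-0.99, -0.74, and -0.68) were among those called, and *Cdt1* (-0.44) was not. The part of cell cycle state in the histone values was not tested.

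**Figure D5:**
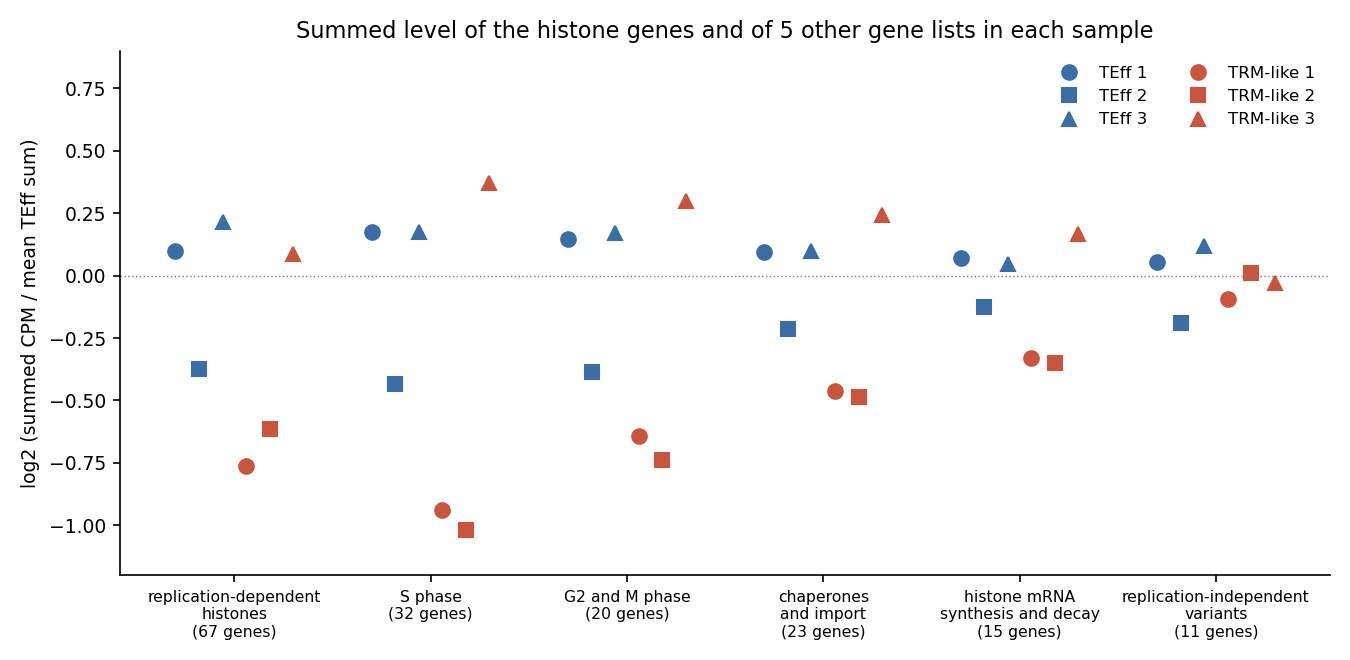
Summed CPM of each gene list in each sample, as log2 over the mean of the TEff sums, with TEff in blue, TRM-like in red, and replicates 1, 2, and 3 as circles, squares, and triangles. TRM-like replicates 1 and 2 are lowest for the replication-dependent histones (-0.76 and -0.61) and the S phase list, while the replication-independent variants of all samples lie close to 0.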

How the data were processed

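CD8+ T cells of 3 TEff and 3 TRM-like samples were profiled by total RNA sequencing. The authors trimmed reads with Cutadapt (4.8, per the submitters' processing notes, which also name DESeq2 1.40.2), aligned them to GRCm39 and counted them per GENCODE gene with Rsubread, and deposited raw counts and gene lengths. The strand setting and the handling of reads that match several places are not given in the sources used here. A batch term is mentioned for the authors' principal component analysis, but no batch is named and none was fitted.

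Of 57126 gene IDs, 56620 were paired with a symbol from the GENCODE annotation of GRCm39 given here. Genes with at least 1 count in 3 samples were tested with edgeR 4.0.16 (TMM, quasi-likelihood, R 4.3.3) on all 6 samples, with Benjamini-Hochberg adjustment over all tested genes, an adjusted p under 0.05 and an absolute log2 fold change above 0.58. The total count was 18319013 to 23622621 per sample. Alternatives used DESeq2 1.42.0, limma 3.58.1, other scalings and filters, a replicate block and each sample left out. The script was tested on simulated data with 200 genes changed 4-fold. It recovered 98.5% of them, and 10.5% of its calls were false, above the adjusted p threshold of 0.05.

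Genes named were those called, the 3 of each family with the highest RPKM, the largest fold change of each family, all H1 genes, the testis forms, and in each list the 3 smallest p-values and a few set genes. *H2bc26*, *H2ac25*, *H2bc21*, *H2ac20*, *Casp8ap2*, *Eri1*, *Asf1b*, *Chaf1a*, *Chaf1b*, *Atrx*, *Cabin1*, *Ubn1*, *Itgae* and *Trim17* were added after their values were seen. The members and lists were chosen with earlier results of these data known.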

Additional observations from a re-analysis of the deposited data

How the results depend on the processing

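*H2bc27* was called lower in all 17 alternatives. The number of histone genes called lower, 1 with all samples, was 2 with DESeq2, 21 with no filter on low counts (which moved the median log2 fold change of all genes from 0.02 to 0.38), 26 with a replicate block, and 12 with a replicate block and at least 10 counts in every sample. Of all genes tested, 1.48% were called lower with all samples, and 2.25%, 2.05%, 4.13%, and 3.10% under these 4 alternatives. The prior degrees of freedom, the weight edgeR gives to the spread shared across genes, were infinite in the first block fit. They were 4.97 in the main fit and 8.30 in the second block fit, so the first block count does not use each gene's own spread in the same way. The number of histone genes called lower ranged from 1 to 51 when each sample was left out. It was 2 without TEff replicate 2 and 51 without TRM-like replicate 3 (47 with DESeq2). Of all genes tested, 0.74% were called lower without TEff replicate 2 and 7.67% without TRM-like replicate 3 (6.64% with DESeq2). The last block setting and DESeq2 without TRM-like replicate 3 were chosen after seeing the data. Samples with the same replicate number did not deviate together in every pair (correlations -0.29, 0.31, and 0.39 over 14822 genes, against 0.52 for TEff replicate 2 and TRM-like replicate 1), so the numbers were not taken to pair the samples. With no filter 1 S phase gene was lower, with the replicate block 6 S phase genes and 1 G2 and M phase gene, and with the block and 10 counts 1 S phase gene. Leaving out each sample gave 0 to 4 lower genes for histone mRNA processing, 0 to 11 for chaperones, 0 to 1 higher and 0 to 1 lower for variants, 0 to 28 for S phase, and 0 to 11 for G2 and M phase, always with the larger value without TRM-like replicate 3, where DESeq2 gave 4, 11, 1 and 1, 27, and 10. The cause of these changes was not tested. Small log2 fold changes turned direction when a sample was left out. The range was -0.705 to 0.0442 for *H2ac25* and -0.300 to 0.0735 for *H2bc21*, both positive without TRM-like replicate 3 (0.0645 and 0.0967 with DESeq2). It was -0.147 to 0.197 for *H2az1* (-0.123 with DESeq2 without TRM-like replicate 3), -0.152 to 0.0382 for *H3f3b*, -0.0563 to 0.156 for *Lsm10*, -0.341 to 0.0379 for *Lsm11*, and -0.488 to 0.0256 for *Slbp*. The log2 ratio of the summed histone level stayed negative, at -0.69 to -0.22 over the left-out samples.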
